A study of Homo sapiens with 2 samples.

Results

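OAS1, OAS2, OAS3, OASL, MX1, MX2 and RSAD2 are antiviral effector genes of the interferon response. They were taken by symbol from the gene list of the files, and all 7 were found among 36601 genes. Their levels are described in 2994 tumour cells that fell into 13 populations, each defined by a pair of hashtags, which are antibody-bound barcodes that mark the tumour a cell came from.

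The cells were OVCAR5, an established human ovarian carcinoma line, carrying a reporter that senses interferon gamma (IFNg), grown as tumours in NSG mice that also lack B2m. NSG hosts lack mature T, B and NK cells of their own. Injections into the tumour gave IFNg or tumour necrosis factor alpha (TNFa), singly or combined. The tumours were then dissociated, hashtagged and pooled, and the CFP+ cells of the pool, which the labels call bystander tumour cells, were sorted and sequenced as 1 single-cell 3′ library. Per the labels, 3 of the 13 tumours had TNFa alone (10 ng/ml, 6 h), 2 had both cytokines (IFNg 100 ng/ml, TNFa 10 ng/ml, 6 h), 2 had IFNg alone (100 ng/ml) for 24 h and 1 had it for 48 h. The unexposed tumours numbered 2 at 6 h, 2 at 24 h and 1 at 48 h. The treatment fields of the gene expression and hashtag libraries name an unstimulated culture and TNFa, at odds with this list. The age of the mice and the tumour behind each hashtag pair are not given in the sources used here. No exposed tumour was therefore compared with an unexposed one, and the populations are described 1 by 1 under their hashtag names. Several conditions had 2 or 3 tumours, but which populations they are is not known, so none could be used as replicates. No test was made between populations. Intervals are 95% and cover counting error only, so variation between cells and between tumours is not in them.

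The OAS proteins sense double-stranded RNA. OAS1, OAS2 and OAS3 then make short 2′-5′-linked oligoadenylates, messengers that lead to the breakdown of RNA in the cell, while OASL has lost that activity and acts on the RNA sensor RIG-I. MX1 and MX2 are dynamin-like GTPases that block incoming viruses, MX1 many RNA viruses from the cytoplasm and MX2 mainly HIV and herpesviruses at the nuclear envelope. RSAD2 encodes viperin, a radical SAM enzyme that turns CTP into a chain terminator of viral RNA synthesis. Type I and type III interferons act on these genes through the ISGF3 complex, which includes STAT2 and IRF9 and binds the interferon-stimulated response element (ISRE). IFNg acts mainly at gamma-activated sites (GAS) and through IRF1, which can also bind ISRE-type sequence.

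In GRCh38 with GENCODE 29, OAS1 (ENSG00000089127) lies at chr12:112906777-112933222, OAS3 (ENSG00000111331) at chr12:112938352-112973249 and OAS2 (ENSG00000111335) at chr12:112978395-113011723. These 3 genes stand in a row on the plus strand, with gaps of 5129 and 5145 bases. OASL (ENSG00000135114) lies apart on the minus strand, at chr12:121019111-121039242. MX2 (ENSG00000183486, chr21:41361943-41409390) and MX1 (ENSG00000157601, chr21:41420304-41459214) are neighbours on the plus strand, 10913 bases apart. RSAD2 (ENSG00000134321, chr2:6865806-6898239, plus strand) overlaps the start of CMPK2 on the opposite strand by 830 bases. The sources used here do not say whether the counting used strand. Without strand, reads of RSAD2 and CMPK2 could not be told apart within those 830 bases, which lie at the starts of both genes. The library is a 3′ one, and the 3′ ends of the genes lie apart, at chr2:6898239 for RSAD2 and chr2:6840570 for CMPK2. The antisense gene AC004551.1 covers OAS1, OAS2 and OAS3 and had 0 UMIs (counted molecules), and AP001610.1, antisense to part of MX1, had 2.

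RefSeq start-site windows (GRCh38.p14) were at hand for 4 of the 7 genes: 1 window each for OAS1 and OAS3, 2 for RSAD2 and 3 for MX1. The 250 bases before each start were searched on both strands for the ISRE core (GAAA, any 2 bases, GAAA), for GAAANGAAA, which has a spacer of 1 base and was added after the windows had been seen, and for the GAS core TTCNNNGAA. The ISRE core matched in 3 of the 7 windows, those of OAS3, the second RSAD2 start and the last MX1 start. Either form matched in all 7, a count that depends on the form added later, and the forms can overlap each other. Among all 35116 windows of that length, 3.02% held the ISRE core, 2.69% held GAAANGAAA, 5.48% held either and 6.57% held TTCNNNGAA. A match describes letters and shows no binding. Stretches of 30 bases are shown as a description, printed 5′ to 3′ on the plus strand with the matching bases in capitals. Their part in the levels of the genes was not tested, and OAS2, OASL and MX2 had no window. The windows overlap annotated exons of the same genes by 79 to 250 bases. The stretches are at chr12:112906932-112906961 (OAS1), chr12:112938318-112938347 and chr12:112938444-112938473 (OAS3), chr2:6865722-6865751 and chr2:6877622-6877651 (RSAD2, 1 for each start) and chr21:41420528-41420557, chr21:41426115-41426144, chr21:41426160-41426189 and chr21:41431847-41431876 (MX1, in the order of the lines).
OAS1: cctcccttctgagGAAACGAAAccaacagc
OAS3, distal: gctagaaaGAAACGAAACTGAAAgcaggga
OAS3, proximal: gttcggagagccgggcggGAAAACGAAAcc
RSAD2, first start: gccccgcctcgGAAACGAAAcctggcggga
RSAD2, second start: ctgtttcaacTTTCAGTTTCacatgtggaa
MX1, first start: gcaatttgactTTTCCTTTCtggaaaccag
MX1, second start, distal: caggagctaggTTTCGTTTCtgcgcccgga
MX1, second start, proximal: gggtctgtgagTTTCATTTCttcgcggcgc
MX1, last start: cactctgTTTCTCTTTCCGTGAAtaaaaag
The bases GAAACGAAA occur in the OAS1, the distal OAS3 and the first RSAD2 stretch, and as their reverse complement in 1 of the 4 MX1 stretches. The other 3 MX1 stretches, and the windows of 2 of its 3 starts, lack them. The first RSAD2 window held 4 copies of this form. TTCNNNGAA matched once in the OAS1 window and once in the last MX1 window, where it overlapped the ISRE match and the capitals cover both.

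The library held 9083 barcodes, and 3611 (39.8%) passed the limits of 500 genes or more and 20% mitochondrial UMIs or less. A population was a pair of hashtags in which the second had 20 counts or more and at least 4 times the third. Cells per population numbered 110 to 507 (median 197), their UMIs 765923 to 5058403, with medians of 6434.5 to 9450 UMIs per cell. The lowest median depth was in HTO4+HTO9 and the lowest passing share, 24.3% of its barcodes, in HTO3+HTO6. Median mitochondrial shares ran from 14.3% to 15.6%. Levels are in CPM, the UMIs of a gene per 1000000 UMIs of all genes in the population's cells.

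The 7 genes were highest in the same 4 populations, HTO2+HTO8, HTO2+HTO9, HTO4+HTO8 and HTO4+HTO9, which held the 4 highest levels of every one of them. The summed level was 1751 CPM (1691 to 1812) in HTO2+HTO8, 1624 CPM in HTO2+HTO9, 1562 CPM in HTO4+HTO9 and, in HTO4+HTO8, 1505 CPM. HTO2+HTO7, HTO2+HTO6 and HTO2+HTO5 came next with 919, 892 and 808 CPM, then HTO4+HTO7 with 686 CPM, HTO3+HTO6 with 669.7 CPM and HTO4+HTO6 with 537 CPM. The lowest sums were 399 CPM in HTO3+HTO7, 298 CPM in HTO3+HTO5 and 215 CPM (191 to 242) in HTO3+HTO9. The highest sum was 8.13 times the lowest (7.21 to 9.21). Of the 12 steps between neighbours in this order, 8 had an interval of the ratio that left out 1, and the largest, 1.64-fold (1.55 to 1.73), set the 4 highest apart from the other 9.

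**Figure D1:**
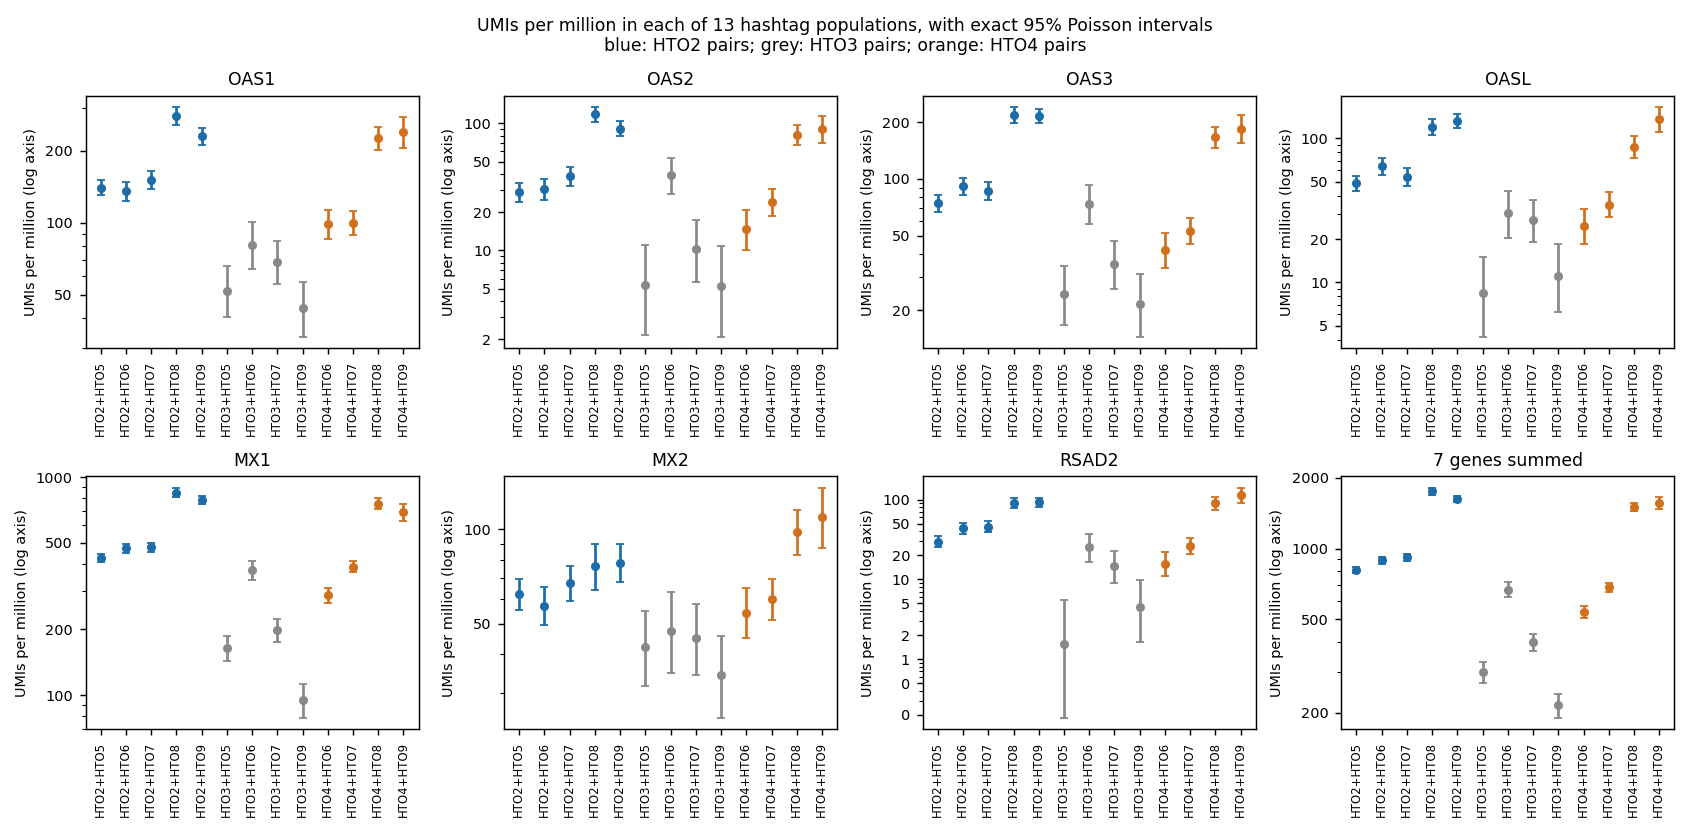
Level of each of the 7 genes and of their sum (CPM, log axis) in each of the 13 hashtag populations on the x axis, as points with exact 95% Poisson intervals, coloured by the first hashtag. HTO2+HTO8, HTO2+HTO9, HTO4+HTO8 and HTO4+HTO9 are the 4 highest points in every panel, and the sum runs from 215 to 1751.

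OAS1, whose protein makes oligoadenylates, was present in every population. Its levels were 140, 135, 151, 278 and 229 CPM in HTO2+HTO5 to HTO2+HTO9. They were 52.1, 80.6, 68.5 and 43.9 CPM in HTO3+HTO5, HTO3+HTO6, HTO3+HTO7 and HTO3+HTO9, and 98.3, 99.9, 225 and 239 CPM in HTO4+HTO6 to HTO4+HTO9. All 4 HTO3 populations lay below all the others. The highest level was 6.33 times the lowest (4.83 to 8.44). With limits of 1000 genes and 10% mitochondrial UMIs, which kept 400 cells and as few as 12 in a population, it was 26.7 times the lowest, which was then HTO3+HTO7. OAS1 counts pool its splice forms, which were not separated here. Of the 31-base words in the last 1000 bases of its longest coding transcript, 10.8% also occur in transcripts of other genes, so part of its count is uncertain, and the same share was found for RSAD2.

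OAS2 and OAS3, which carry several OAS units in 1 protein and lie beside OAS1, also had their lowest level in HTO3+HTO9 and their highest in HTO2+HTO8. OAS2 ran from 5.21 CPM (7 UMIs) in HTO3+HTO9 and 5.36 CPM (7 UMIs) in HTO3+HTO5 to 117 CPM in HTO2+HTO8, with a median of 30.3 CPM, a ratio of 22.5 (10.7 to 56.6). OAS3 ran from 21.6 CPM in HTO3+HTO9 to 219 CPM in HTO2+HTO8, with a median of 74.3 CPM, a ratio of 10.1 (6.95 to 15.3). With the limits of 1000 genes and 10% the ratios were 8.52 for OAS2 and 12.96 for OAS3, so the order of the 3 genes by ratio depends on those limits. HTO3+HTO6 stood apart from the other HTO3 populations in both genes. It had 39.3 CPM of OAS2, against 5.36, 10.3 and 5.21 CPM in the other 3, and 73.5 CPM of OAS3, against 24.5, 35.3 and 21.6 CPM. The ratio of HTO3+HTO6 to HTO3+HTO7 was 3.81 (2.02 to 7.60) for OAS2, 2.08 (1.43 to 3.06) for OAS3 and 1.18 (0.861 to 1.60) for OAS1. A single cell held 29 of the 93 OAS1 UMIs of HTO3+HTO7, and without the cell with the most OAS1 UMIs in each of these populations the OAS1 ratio was 1.58 (1.11 to 2.24).

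OASL, the family member without synthetase activity, ran from 8.42 CPM (11 UMIs) in HTO3+HTO5 to 136 CPM in HTO4+HTO9, with a median of 48.6 CPM and a ratio of 16.1 (8.65 to 33.3). Its 3 lowest populations were HTO3+HTO5, HTO3+HTO9 and HTO4+HTO6, while those of the other 6 genes were HTO3+HTO5, HTO3+HTO7 and HTO3+HTO9. In HTO3+HTO6 it had 30.2 CPM and in HTO3+HTO7 27.2 CPM, a ratio of 1.11 (0.662 to 1.84).

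MX1, counted with 13553 UMIs, had the tightest intervals of the 7. Its levels were 425, 471, 477, 849.6 and 785 CPM in HTO2+HTO5 to HTO2+HTO9. In the HTO3 populations they were 164 CPM (HTO3+HTO5), 374 CPM (HTO3+HTO6), 198 CPM (HTO3+HTO7) and 94.6 CPM (HTO3+HTO9), and in HTO4+HTO6 to HTO4+HTO9 they were 287, 389, 756 and 688 CPM. Its highest level was 8.98 times its lowest (7.49 to 10.8), and 8 of its 12 steps between neighbours had intervals without 1. These are counting intervals, while the variance of MX1 over cells was 3.62 to 11.8 times that of Poisson counts. HTO3+HTO6 had 3.95 times the MX1 of HTO3+HTO9 (3.22 to 4.87), the widest MX1 gap within 1 first hashtag.

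MX2, the neighbour of MX1, varied least of the 7 in ratio. It had 62.1, 57.0, 67.4, 76.2 and 78.4 CPM in HTO2+HTO5 to HTO2+HTO9. It had 42.1, 47.3, 44.9 and 34.3 CPM in HTO3+HTO5, HTO3+HTO6, HTO3+HTO7 and HTO3+HTO9, and 54.3, 59.8, 98.3 and 109.7 CPM in HTO4+HTO6 to HTO4+HTO9. The ratio of highest to lowest was 3.20 (2.21 to 4.69), and only 1 of the 12 steps between neighbours, that from HTO4+HTO8 to HTO2+HTO9, had an interval without 1. With the limits of 1000 genes and 10% its ratio was 7.36.

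RSAD2, the viperin gene, had the lowest counts at its lower end. It had 2 UMIs (1.53 CPM, 0.185 to 5.53) in HTO3+HTO5 and 6 UMIs (4.47 CPM) in HTO3+HTO9, against 114 CPM in HTO4+HTO9, 93.1 CPM in HTO2+HTO9, 90.8 CPM in HTO2+HTO8 and 89.6 CPM in HTO4+HTO8. Its other 7 populations lay between 14.7 and 45.8 CPM. The ratio of highest to lowest was 74.2, with an interval of 19.9 to 622 that reflects those 2 UMIs. It was 9.56 with the limits of 1000 genes and 10%, 15.0 with a limit of 50% mitochondrial UMIs, 12.3 with no cell limits, 27.95 with cells thinned to 4000 UMIs each and 131 with a hashtag ratio of 10.

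CMPK2, a mitochondrial nucleoside monophosphate kinase gene that overlaps the start of RSAD2, followed a similar order. It had 0 UMIs in HTO3+HTO5, 3.71 to 18.0 CPM in 8 populations and 43.1, 46.9, 50.8 and 53.9 CPM in HTO4+HTO9, HTO2+HTO9, HTO2+HTO8 and HTO4+HTO8. Over the 13 populations its log2(CPM + 1) had a correlation of 0.944 with that of RSAD2. In cells thinned to 4000 UMIs, 22.6% (18.3% to 27.5%, exact binomial) of the 340 cells with an RSAD2 UMI also had a CMPK2 UMI, against 4.62% (3.83% to 5.52%) of the 2468 without. The next gene beyond RSAD2, RNF144A, had 104 UMIs in all.

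Set against the whole table, the highest level was at least 4 times the lowest in 6 of the 7 genes and in 21.9% of the 13596 genes with 30 UMIs or more. The median ratio was 10.1 over the 7 and 2.34 over all of them. Low counts widen such ratios: 18.2% of the 11087 genes with 100 UMIs or more reached 4-fold, and among the 3435 genes with at least the 1203 UMIs of OAS2, the least counted of the 7, 5.62% did and the median ratio was 1.66. With 2-fold as the limit all 7 passed, beside 62.2% of genes. With 8-fold 5 passed, beside 6.37%, and OAS1 and MX2 were the 2 that did not.

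**Figure D2:**
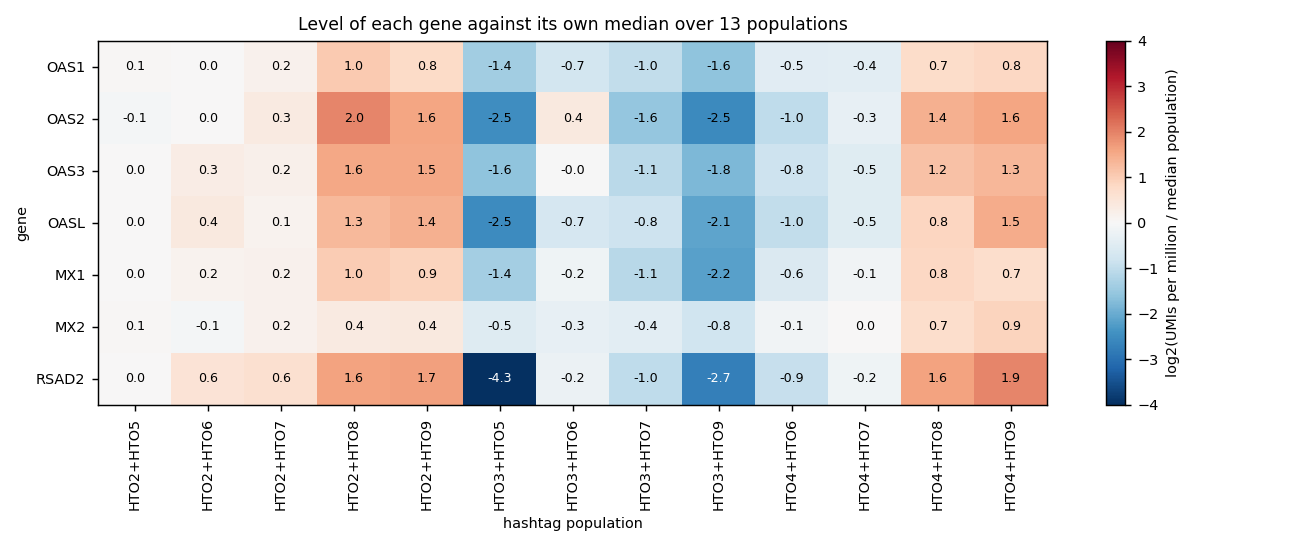
Level of each gene (rows) in each hashtag population (columns) as log2 of its CPM over the gene's own median population, by colour and printed value. The 4 highest populations of each gene are red in every row, the MX2 row is the palest, and the darkest cell is RSAD2 in HTO3+HTO5, which rests on 2 UMIs.

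The 7 genes did not keep fixed proportions. MX1 UMIs per MX2 UMI numbered 11.1 (9.38 to 13.3) in HTO2+HTO8 and 10.0 (8.67 to 11.6) in HTO2+HTO9, 7.69 (6.47 to 9.20) in HTO4+HTO8 and 6.27 (4.98 to 8.00) in HTO4+HTO9. They numbered 2.76 (1.96 to 3.96) in HTO3+HTO9. The size of such a ratio depends on how well each transcript is captured, so only its change over the populations is read. MX2 was lower in HTO2+HTO8 than in HTO4+HTO8 (ratio 0.775, 0.610 to 0.984) and lower in HTO2+HTO9 than in HTO4+HTO9 (0.715, 0.551 to 0.933), while MX1 was higher in both (1.12, 1.04 to 1.21, and 1.14, 1.04 to 1.26). Without the cell with the most MX2 UMIs in each, the second MX2 ratio was 0.762 (0.581 to 1.009), with an interval that held 1. The intervals of the MX1 ratios leave out the spread of MX1 over cells. OAS1, OAS2, OAS3 and OASL were 1.24 to 1.44 times as high in HTO2+HTO8 as in HTO4+HTO8, with intervals above 1. Their ratios of HTO2+HTO9 to HTO4+HTO9 were 0.958 to 1.17, with intervals that held 1, and the same was true of RSAD2 in both (1.014 and 0.820). MX1 UMIs per RSAD2 UMI ran from 6.06 (4.82 to 7.69) in HTO4+HTO9 to 21.2 (9.46 to 58.8) in HTO3+HTO9 and 107 (29.3 to 889) in HTO3+HTO5.

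**Figure D3:**
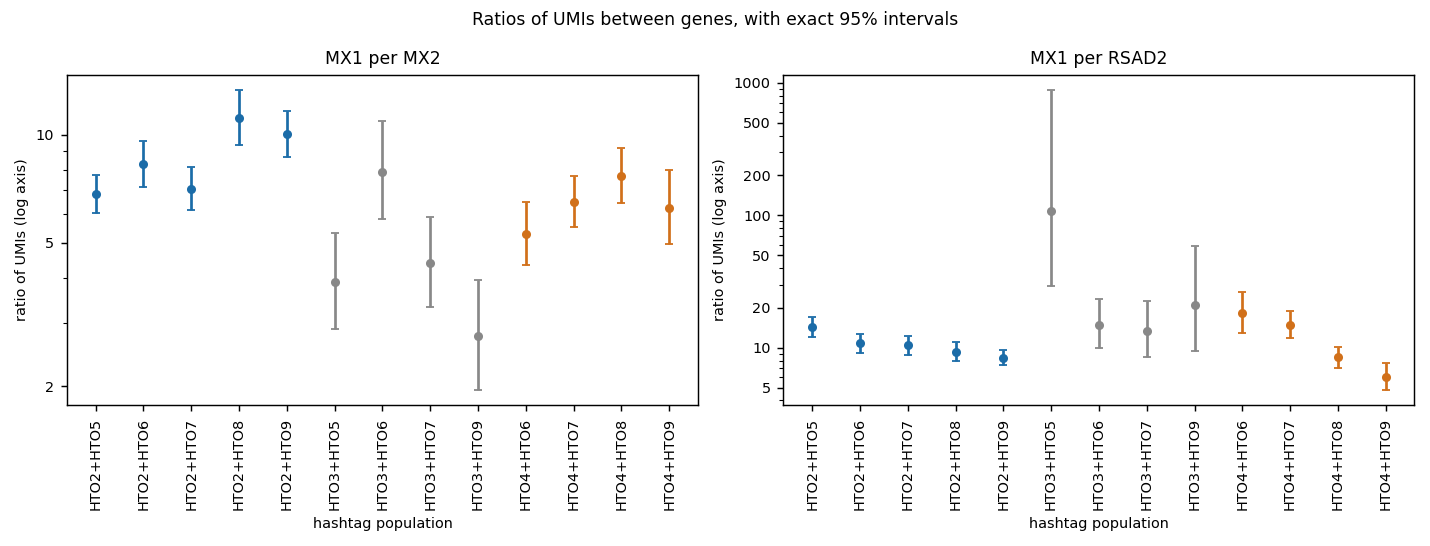
UMIs of MX1 per UMI of MX2 (left) and of RSAD2 (right) on a log axis, in each of the 13 populations on the x axis, with exact 95% intervals and coloured by the first hashtag. MX1 per MX2 is highest in HTO2+HTO8 (11.1) and lowest in HTO3+HTO9 (2.76), and MX1 per RSAD2 is lowest in HTO4+HTO9 (6.06).

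Single cells differed widely. A UMI was seen in 75.5% of the 2994 cells for MX1, 57.6% for OAS1, 45.4% for OAS3, 38.9% for MX2, 27.7% for OASL, 24.9% for OAS2 and 20.8% for RSAD2. With the 2808 cells of 4000 UMIs or more thinned to 4000, these shares were 61.8%, 39.3%, 26.9%, 21.8%, 16.3%, 13.9% and 12.1%. No cell type known to lack these genes was in the pool to give the share that free RNA adds. CXCL9, a chemokine gene of the same pool that was chosen after its values were seen, reached 821 CPM in HTO2+HTO8 and had 1 UMI (0.464 CPM) in HTO4+HTO6. CXCL10, another chemokine gene, reached 6480 CPM in HTO2+HTO9 and had 18.9 CPM (55 UMIs) in HTO4+HTO7, its lowest population. Neither gene gives the share of free RNA, which was not tested. The lowest thinned share of MX1 was 23.2%, in HTO3+HTO9, and the highest 92.7%, in HTO2+HTO8. Thinned OAS2 shares ran from 1.41% to 35.2% and thinned RSAD2 shares from 1.55% (2 of 129 cells) in HTO3+HTO5 to 26.3% in HTO2+HTO8. The 299 cells with the most UMIs of a gene held 41.5% of all OAS1 UMIs, 42.2% of MX1, 66.9% of OASL and 74.4% of RSAD2. Within populations the variance of MX1 over cells was 3.62 to 11.8 times that of Poisson counts at the same depths (median 6.77), and 1 cell of HTO2+HTO6 held 55 of the 234 OASL UMIs of its population. For the sum of the 7 genes the variance was 6.26 to 16.9 times that of Poisson counts. The intervals of levels and ratios leave this spread out and are too narrow for it, which matters most for ratios near 1.

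The number of the 7 genes seen per thinned cell was highest in the same 4 populations, in another order than the summed level. A cell of HTO2+HTO8 had 3.34 of them on average, one of HTO4+HTO9 3.10, one of HTO2+HTO9 3.03 and one of HTO4+HTO8 2.96, and one of HTO3+HTO9 0.634. The share of cells with 4 or more was 41.9% (34.6% to 49.5%) in HTO2+HTO8, 38.6% in HTO2+HTO9, 37.8% in HTO4+HTO9 and 36.5% in HTO4+HTO8. It was 1.41% (0.171% to 5.00%) in HTO3+HTO9 and at most 15.9% in the other 8. None of the 7 was seen in 0.559% (1 of 179 cells) of HTO2+HTO8 and in 58.5% of HTO3+HTO9, and all 7 in 13 of the 2808 cells.

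**Figure D4:**
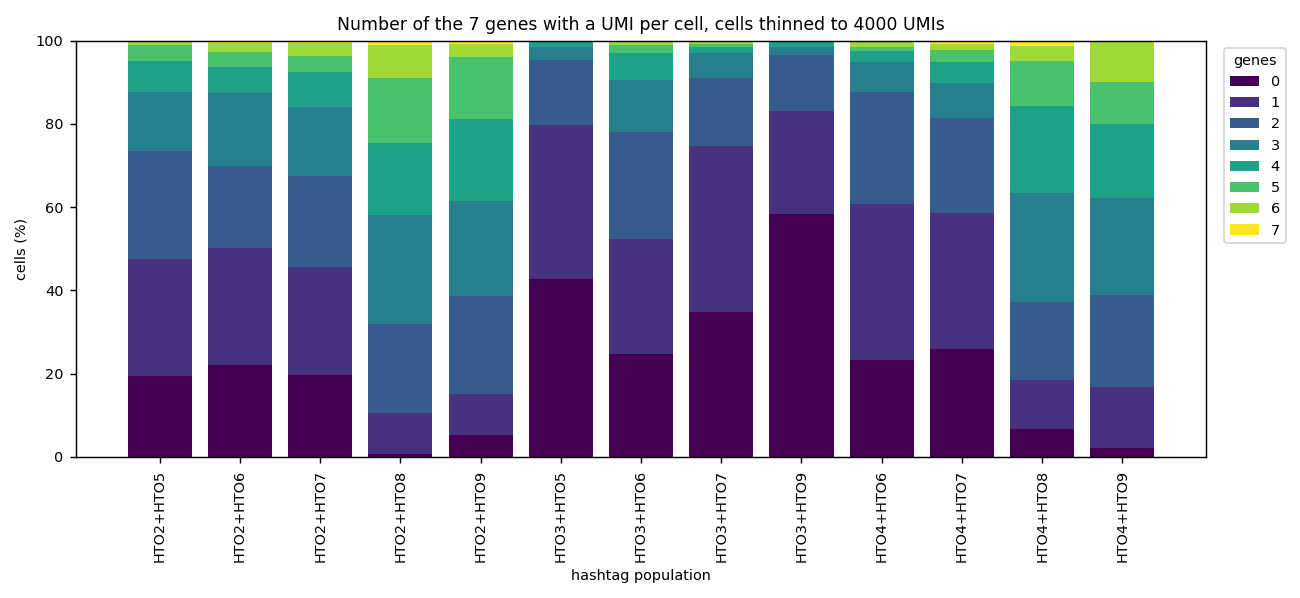
Share of cells (%) by the number of the 7 genes with at least 1 UMI, for each of the 13 populations on the x axis, with every cell thinned to 4000 UMIs; colours run from 0 genes (dark) to 7 (yellow). Cells with 0 genes make up 0.559% of HTO2+HTO8 and 58.5% of HTO3+HTO9.

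Cells with a UMI of one gene more often had a UMI of another. In thinned cells with an MX1 UMI, 22.9% had an OASL UMI and 17.3% an RSAD2 UMI, against 5.69% and 3.73% of cells without. These shares mix populations, but OASL was more often seen beside MX1 in 12 of the 13 populations (HTO4+HTO9 was the exception) and RSAD2 in 11 of 13. RSAD2 was seen in 30.3% of cells with an OASL UMI and in 8.55% of those without, and the share was higher in 12 of 13 populations. As a description, the mean correlation over the 21 pairs of genes was 0.355 over 2994 cells on log(UMIs per 10000 + 1), 0.241 after thinning and 0.188 after thinning and centring on populations. All cells share 1 library. Over the 13 populations the mean correlation of log2(CPM + 1) was 0.943, from 0.885 (MX2 and RSAD2) to 0.987 (OAS2 and OAS3). Since 4 populations stand apart at the top, it was also taken over the other 9, where the mean was 0.907.

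The genes of the signalling path differed in how far they moved with the 7. STAT2, a part of ISGF3, ran from 16.1 CPM in HTO3+HTO5 to 102 CPM in HTO2+HTO8. IRF9, the DNA-binding part of ISGF3, ran from 40.2 CPM in HTO3+HTO9 to 144 CPM in HTO4+HTO9, and IRF7 from 50.5 CPM to 138 CPM. IRF1, an early IFNg target, was lowest in HTO3+HTO6 with 86.6 CPM and highest in HTO2+HTO9 with 1917 CPM. Among ISGF3 genes, interferon receptors and kinases, 5 of 11 with 30 UMIs or more differed 4-fold or more (median ratio 3.57), beside 21.9% of all genes with 30 UMIs or more. Of the RNA and DNA sensors and IRF genes, 6 of 11 did (median 4.67), and of the partners and genomic neighbours of the 7, 2 of 6 (median 2.85). Those 2 were CMPK2, at 0 UMIs in its lowest population, and RNF144A, at 3 UMIs in its own.

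Interferon genes themselves were hardly seen. Of 21 of them, 19 had 0 UMIs in these cells, among them IFNB1, every measured IFNA gene and IFNG, which allows up to 0.103 CPM each over all populations. IFNE had 41 UMIs and IFNL3 had 1. The mouse host's transcripts were not analysed here.

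Other interferon-stimulated effectors followed a like order of populations. Of 36 such genes, 28 differed 4-fold or more, with a median ratio of 6.36 and a median correlation with the summed level of the 7 of 0.945. ISG15, a ubiquitin-like modifier, ran from 815 CPM in HTO3+HTO9 to 4070 CPM in HTO4+HTO8, IFIT3 from 25.3 CPM to 597 CPM and IFIT1 from 27.6 CPM to 192 CPM. IFI27, the most counted of that list, was highest in HTO3+HTO6 with 6353 CPM, 2.596 times its lowest level. USP18, which shuts off the type I receptor, ran from 5.96 CPM in HTO3+HTO9 to 48.1 CPM in HTO2+HTO8. Of 8 negative regulators, 3 differed 4-fold or more, beside the same 21.9% of all genes. They were USP18 and ISG15, which are also in the effector list, and SOCS1, which is also in the IFNg list. None of 10 genes used as steady references differed 4-fold or more (median ratio 1.56).

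Genes led by IFNg were highest in the same 4 populations, and genes led by TNFa were not. All 20 genes of the IFNg list differed 4-fold or more, with a median ratio of 49.4 and a median correlation with the sum of the 7 of 0.849. Their summed level was 25162 CPM in HTO2+HTO8, 21925 CPM in HTO2+HTO9, 12082 CPM in HTO4+HTO9 and, in HTO4+HTO8, 10374 CPM, against 569 to 3362 CPM elsewhere. CXCL10, a chemokine, was 16.6 times as high in HTO2+HTO8 as in HTO4+HTO8 (15.2 to 18.1) and GBP1, a GTPase, 4.15 times (3.87 to 4.46), where the sum of the 7 antiviral genes was 1.16 times as high (1.10 to 1.23). HLA-DRA, an MHC class II chain, was lower there (0.377, 0.339 to 0.418). In the TNFa list 12 of 15 genes differed 4-fold or more, beside the same 21.9% of all genes. The median correlation of its genes with the sum of the 7 was 0.479. That list was highest in HTO2+HTO6 (9173 CPM) and HTO2+HTO7 (7163 CPM). HTO2+HTO9 (6426 CPM) and HTO2+HTO8 (5342 CPM) came next, against 2351 CPM in HTO2+HTO5. HTO4+HTO9 and HTO4+HTO8 had 1466 and 1449 CPM. NFKBIA, the NF-kB inhibitor gene, was 6.51 times as high in HTO2+HTO6 as in HTO2+HTO5 (6.08 to 6.98), where the 7 antiviral genes together were 1.10 times as high (1.05 to 1.16) and OAS1 0.965 times (0.859 to 1.08). RSAD2 was 1.47 times (1.17 to 1.85) and OASL 1.31 times (1.09 to 1.58) as high there. The OASL value rests on the cell with 55 UMIs: without the cell with the most OASL UMIs in each of these populations the ratio was 1.09 (0.895 to 1.34).

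**Figure D5:**
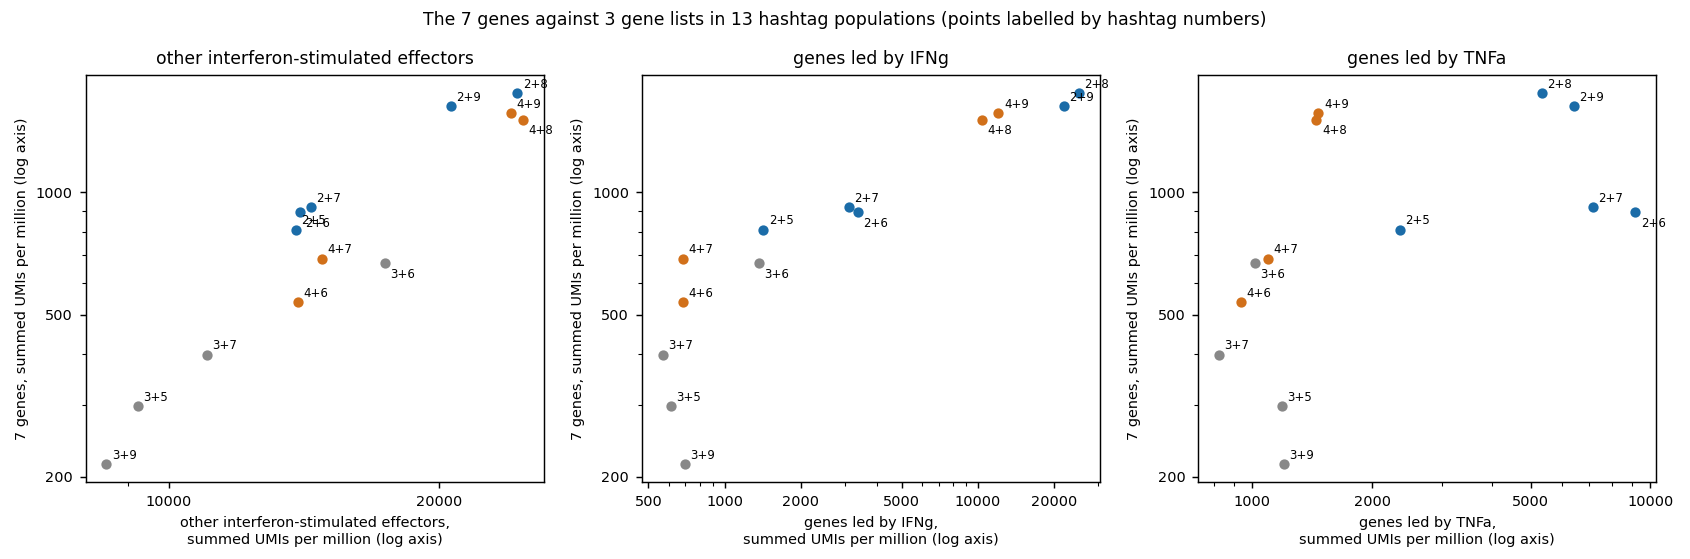
Summed level of the 7 genes (y axis, CPM, log axis) against that of 3 gene lists (x axis, CPM, log axis), 1 point per population, labelled by its 2 hashtag numbers and coloured by the first hashtag. Populations HTO4+HTO8 and HTO4+HTO9 reach 1505 and 1562 for the 7 genes at 1449 and 1466 for the TNFa list. HTO2+HTO8 and HTO2+HTO9 have 1751 and 1624 at 5342 and 6426, while HTO2+HTO6 has 892 at 9173.

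HTO3+HTO6 held more of the 7 than the rest of the HTO3 populations, with 1.68 times the sum of HTO3+HTO7 (1.496 to 1.88), 2.25 times that of HTO3+HTO5 and 3.11 times that of HTO3+HTO9. Its sum over the other interferon-stimulated effectors was 17408 CPM, against 8525 to 11035 CPM in those 3. The summed level of the IFNg list there was 1369 CPM, against 569 to 696 CPM in those 3. HLA-DRA was 50.4 CPM, against 5.89 to 14.2 CPM. GBP1 was 32.2 CPM, against 17.7 to 31.3 CPM, and CXCL10 was 31.2 CPM, against 21.4 to 29.8 CPM. IRF1 was 86.6 CPM (69.3 to 107), its lowest level of all, with an interval that held its levels in those 3. MX2 in HTO3+HTO6 was not told apart from the other HTO3 populations (ratios of 1.05 to 1.38, all with intervals that held 1). This population also had the lowest share of barcodes within the limits, whose part in these values was not tested.

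Among 9282 genes with 200 UMIs or more, those most like each of the 7 over the populations were other interferon-stimulated genes. XAF1 was closest to OAS1 (correlation of log2(CPM + 1) 0.977, n = 13), OAS3 and IFI44L to OAS2 (0.987 and 0.984), and EPSTI1 and DTX3L to OAS3 (0.989 and 0.988). RSAD2 was closest to OASL (0.981). EIF2AK2, the gene of the double-stranded RNA-activated kinase PKR, was closest to MX1 (0.977), with OAS2 second (0.969). IFIT5 (0.981) and IFIT2 (0.956) were closest to MX2. Over the 2994 cells, MX1 was most like OAS1, OAS2, OAS3 and MX2 (0.507, 0.446, 0.475 and 0.344), IFIT3 most like OASL and RSAD2 (0.494 and 0.492) and ISG15 most like MX1 (0.644).

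The cells carried the markers of carcinoma: 95.4% had 3 or more of 10 epithelial markers. Cells with 3 or more markers of another type numbered 22 for macrophages or monocytes (0.735%), 2 for fibroblasts and 1 for neutrophils, and 0 for endothelial cells, plasmacytoid dendritic cells, T or NK cells, B cells and erythroid cells, which allows up to 0.1002% each. These counts used human genes in cells sorted from a human line grown in mice, so they set no limit on mouse host cells. LILRA4 and CLEC4C, which define plasmacytoid dendritic cells, were at 0 UMIs, and so were CD3E and MS4A1. The macrophage list summed to 43.1 to 73.0 CPM, lowest in HTO4+HTO9 and highest in HTO2+HTO7. The plasmacytoid list reached 20.0 CPM in HTO2+HTO8 and the T and NK list 18.6 CPM in HTO2+HTO9. The neutrophil list was highest in HTO2+HTO9 with 301 CPM and lowest in HTO3+HTO7 with 0.736 CPM, with CSF3R at 0. This sum was not split by gene, and with only 1 cell holding 3 or more of the 5 markers it does not count neutrophils. The epithelial list was lowest in HTO2+HTO8, with 3756 CPM, and highest in HTO4+HTO6, with 7605 CPM. The part of these genes in the results was not tested.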

How the data were processed

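The submitters deposited 1 sparse matrix of UMI counts for genes and hashtags, together with its feature and barcode lists. Cell Ranger version 5.0.1 made it, per the file headers; version 2.1.1 with GRCh38 stands in the submitters' processing notes, and the annotation and the strand setting are not given in the sources used here. Of the 36601 gene IDs, 34616 matched GENCODE 29.

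From the deposited counts, barcodes with 500 genes or more and 20% mitochondrial UMIs or less were kept, and the 2 highest of HTO2 to HTO9 named the population (second hashtag 20 counts or more and at least 4 times the next, 50 cells or more). Barcodes with more hashtags dropped out, and no doublet caller was run. Levels in CPM carry exact Poisson intervals, ratios exact conditional binomial intervals and shares Clopper-Pearson intervals, all at 95%. In ratios over the table, a population at 0 was set to 3 UMIs. Cells of 4000 UMIs or more were thinned to 4000 at random. Correlations used log2(CPM + 1) over populations and log(UMIs per 10000 + 1) over cells. Named genes were the 7, genes of their pathway, the most and least counted genes of lists, neighbours of the 7 and the 5 genes most like each. The 7 genes and the lists were chosen with earlier results of these data known. The ratio calculation was tested on simulated Poisson counts of well-counted genes. That simulation had no spread between cells, so it does not bear on such spread or on ratios that rest on few UMIs. Comparison of exposed with unexposed tumours was planned and not made, since no source ties hashtag pairs to tumours. The alternatives were other cell limits, hashtag ratios, thinning, summaries, fold limits, correlation measures and leaving out populations or the cell with the most UMIs. Python 3.11.15, numpy 2.4.6, scipy 1.17.1 and pandas 2.3.3 were used. The matrix held 0 columns of other samples. Some genes of the lists are not reported here.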

Additional observations from a re-analysis of the deposited data

Results flagged for a closer look

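Signal of the 7 genes also appeared in barcodes of the same pooled library that no population uses. Over the 2994 cells of the populations the 7 genes together had 914 CPM. The 4491 barcodes of a hashtag pair outside the gene or mitochondrial limits had 613 CPM of the 7 genes together (603 to 623). The 617 barcodes within the limits but without a pair had 809.7 CPM (788 to 832). The 981 barcodes with neither had 600.3 CPM (580.2 to 621).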

How the results depend on the processing

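The 8.13-fold ratio of the summed level was 11.7 with limits of 1000 genes and 10% mitochondrial UMIs (400 cells), 7.02 and 9.46 with hashtag ratios of 2 and 10, and 6.05 from the median over the genes of log2(CPM + 1), highest in HTO4+HTO9. It stayed within its interval with looser or no cell limits, thinning or a mean over cells. The count of genes past 4-fold was 6 or 7 under every cell, hashtag and thinning setting, 7 at 2-fold and 5 at 8-fold. The mean correlation over cells, 0.355, was 0.381 with the stricter limits, 0.314 with a limit of 50% mitochondrial UMIs, 0.302 with none, 0.361 with a hashtag ratio of 10, 0.241 thinned, 0.342 as Spearman's and 0.283 centred on populations. The mean correlation over populations, 0.943, was 0.798, 0.960 and 0.961 under those 3 cell limits, 0.926 with a hashtag ratio of 10, 0.925 thinned, 0.947 with a pseudocount of 10 CPM and 0.907 without the 4 highest populations, which was added after seeing the data. Leaving out 1 population at a time gave 0.932 to 0.955, lowest without HTO3+HTO9. Of 42 single-gene ratios under alternatives, 7 left their intervals (3 higher, 4 lower), and of 42 shares of cells 24 did (3 higher, 21 lower). Thinning removes UMIs and so lowers these shares by construction. The cause of the other moves was not tested. Of 64 ratios between named pairs of populations, 4 had an interval that gained or lost 1 without the cell with the most UMIs in each population, also added after seeing the data: OAS1 in HTO3+HTO6 over HTO3+HTO7, OASL in HTO2+HTO6 over HTO2+HTO5 and in HTO4+HTO7 over HTO4+HTO6 (1.29, 0.894 to 1.88), and MX2 in HTO2+HTO9 over HTO4+HTO9. No paired analysis was possible because all cells come from 1 library and no pair of hashtags is mapped to a tumour. Depth limits RSAD2, OAS2 and OASL at their lower ends, where populations held 2 to 11 UMIs.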
